A study of Lissachatina fulica and Mizuhopecten yessoensis with 12 samples.

Results

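THSD4 had 5 annotated copies among 6081 genes listed for a difference between atrium and ventricle in the hearts of a scallop (Mizuhopecten yessoensis) and a giant African snail (Lissachatina fulica). Each copy was higher in every atrium than in any ventricle of its species. The same held for 42.3% of all listed scallop rows and 51.6% of all listed snail rows. The copies were all rows annotated exactly as THSD4 in the deposited tables of genes that differed between atrium and ventricle, 3 of 4195 scallop rows and 2 of 1886 snail rows. The rows of those tables had been selected on the chamber difference itself, with an unadjusted p under 0.05 and a log2 fold change beyond 1.0 in either direction. The chamber differences of the copies are therefore a description and carry no test. In the authors' deposited table the copy nearest to the fold limit was Afu001493, at a log2 fold change (ventricle over atrium) of −1.75. The copy nearest to the p limit was Miz0196230.1, at an unadjusted p of 0.00134. A THSD4 gene outside the tables was not analysed here.

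Atrial and ventricular tissue of adult, wild-type hearts was collected separately and sequenced after poly-A selection, with 3 libraries for each chamber of each species and 12 in all. No treatment or manipulation separated the groups, and the labels do not say whether libraries of a chamber came from different animals, so the spread between them may be partly technical. Reads on the listed rows ranged from 10120508 to 21526834 per scallop library and from 606309 to 1165104 per snail library. Total depth is unknown because only selected genes were listed, and no batch is named in the labels. In bulk tissue, fewer cells of a type and less RNA per cell cannot be told apart.

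In mammals THSD4, also known as ADAMTS-like 6, is a secreted matrix glycoprotein built largely of thrombospondin type 1 repeats. It resembles the ADAMTS metalloproteases but lacks their catalytic domain. It binds fibrillin and promotes the assembly of fibrillin microfibrils, the extracellular fibres that give elastic tissue its scaffold and hold latent TGF-beta in the matrix. In people, variants of the gene are linked to aneurysm of the thoracic aorta. The mollusc rows carry the name as an annotation. No sequence of the copies was at hand, so their relation to each other and to the mammalian gene was not examined, and reads of near-identical copies could have been shared or split in counting.

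The most abundant scallop copy was Miz0184050.1. Its normalized counts, which are read counts divided by a size factor for each library, were 34913, 22263 and 24084 in atria 1, 2 and 3. They were 670.4, 843.6 and 1291 in ventricles 1, 2 and 3. The chambers were far apart, with the lowest atrium 17.2 times the highest ventricle. The means were 27086 ± 6839 and 935.1 ± 320 (SD, n = 3 libraries each), a 29.0-fold difference. On the scale of log2(normalized count + 1) the atrium exceeded the ventricle by 4.88 ± 0.34 (limma SE).

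Miz0136550.1 was the most even copy. It stood at 3694, 2798 and 3088 in the atria and at 79.6, 60.2 and 62.9 in the ventricles. Its lowest atrium was 35.1 times its highest ventricle, and the libraries of a chamber differed by at most 1.32-fold. The means of 3193 ± 457 and 67.6 ± 10.6 gave a 47.3-fold difference and a log2 difference of 5.54 ± 0.36. By the authors' deposited table this row ranked 1 of 4195 scallop rows by p (adjusted p = 3.69e-58), and Miz0184050.1 ranked 5.

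Miz0196230.1 was the least separated of the scallop copies. Its atria stood at 2318, 1172 and 1149 and its ventricles at 159.3, 171.4 and 776.1. Ventricle 3 was 4.69 times the mean of ventricles 1 and 2, and the lowest atrium was only 1.48 times that library. The exact 95% Poisson interval of ventricle 3, 724 to 831, did not meet those of ventricle 1 (134 to 188) or ventricle 2 (141 to 206). Such intervals cover counting error only. The means were 1547 ± 669 and 368.9 ± 353, a 4.19-fold difference. The log2 difference was 2.40 ± 0.60, with 1.999 without ventricle 1 and 3.14 without ventricle 3. In the authors' deposited table this row ranked 1839 by p (adjusted p = 0.0127).

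In the snail the leading copy was Afu001325. It reached 10738, 7648 and 6376 in the atria and 58.3, 164.0 and 14.8 in the ventricles. The lowest atrium was 38.9 times the highest ventricle, while the ventricles themselves differed by 11.1-fold. Ventricle 3 rested on 11 reads (exact 95% Poisson interval 7.38 to 26.4 normalized counts) and ventricle 2 on 96 (133 to 200.2). The means of 8254 ± 2243 and 79.0 ± 76.7 differed 104-fold. The log2 difference was 7.23 ± 0.79, with 6.35 without ventricle 3 and 8.04 without ventricle 2.

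The other snail copy, Afu001493, showed a smaller gap. Its atria stood at 642.3, 792.4 and 505.9 and its ventricles at 254.8, 140.1 and 177.4. The chambers did not overlap, but the lowest atrium was only 1.99 times the highest ventricle. The means were 646.8 ± 143 and 190.7 ± 58.5, a 3.39-fold difference, with a log2 difference of 1.78 ± 0.30. In the authors' deposited table the adjusted p-values of Afu001325 and Afu001493 were 1.69e-13 and 3.91e-08, at ranks 99 and 242 of 1886 by p.

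**Figure D1:**
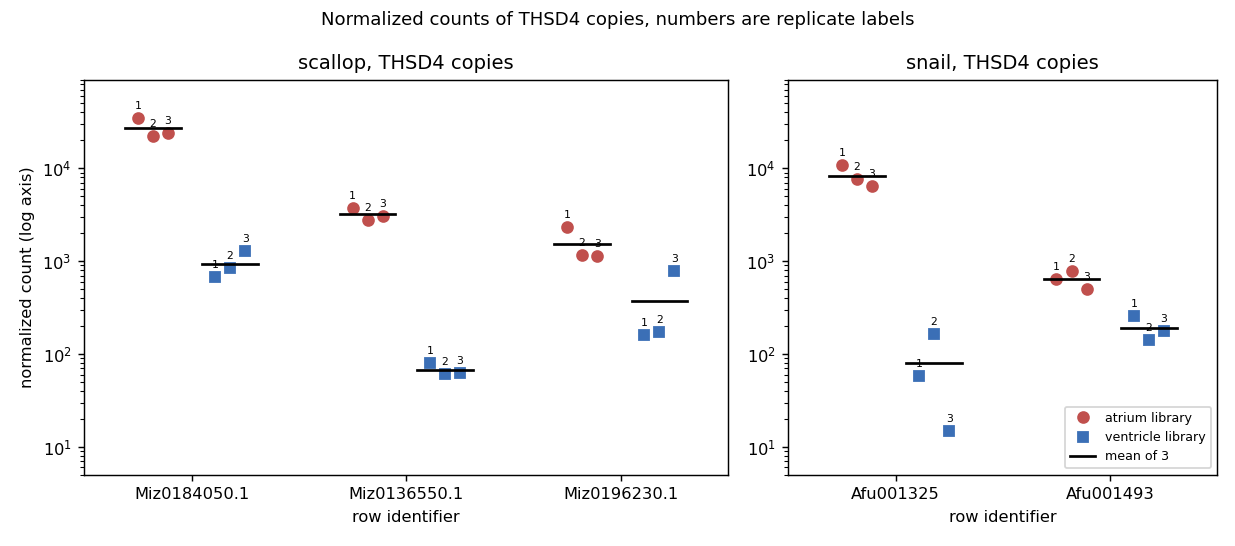
Normalized count (log axis) of each THSD4 copy in every library of scallop (left) and snail (right). Circles are atria, squares ventricles, digits the replicate labels and black lines the arithmetic mean of 3 libraries. No copy has a ventricle as high as its lowest atrium, and the ventricles of Afu001325 and Miz0196230.1 spread most, by 11.1-fold and 4.87-fold.

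All 5 copies lay on the atrial side, but so did much of the tables. The chambers did not overlap toward the atrium in 3 of 3 scallop and 2 of 2 snail copies, beside 42.3% of all scallop rows and 51.6% of all snail rows. Past the limma threshold toward the atrium (a 2-fold change or more, with an adjusted p under 0.05 across the tested rows) were the same 3 and 2 copies, beside 42.0% of 3927 tested scallop rows and 46.9% of 1489 tested snail rows. The authors' deposited adjusted p was under 0.05 for all 5, beside 28.4% and 38.9% of rows with that call toward the atrium. Since these rows were listed for this contrast, nothing is read from the counts.

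By the log2 difference toward the atrium alone, Miz0136550.1 ranked 65, Miz0184050.1 99 and Miz0196230.1 761 of 3927 tested scallop rows. Afu001325 ranked 16 and Afu001493 528 of 1489 tested snail rows. For each copy, the rows with a higher atrial level were then searched for differences at least as large. By mean atrial normalized count Miz0184050.1 ranked 71 of the scallop rows, and none of the 70 rows above it had as large a log2 difference toward the atrium. Of the 425 rows above Miz0136550.1 in the atrium, 4 had as large a difference. Afu001325 ranked 10 in the snail atrium, and 2 of the 9 rows above it differed as much. Of the rows above Miz0196230.1, 68 of 735 had at least as large a difference, and of those above Afu001493, 64 of 150. Gene length does not enter these values, so a rank by normalized count is not a rank by number of transcripts.

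**Figure D2:**
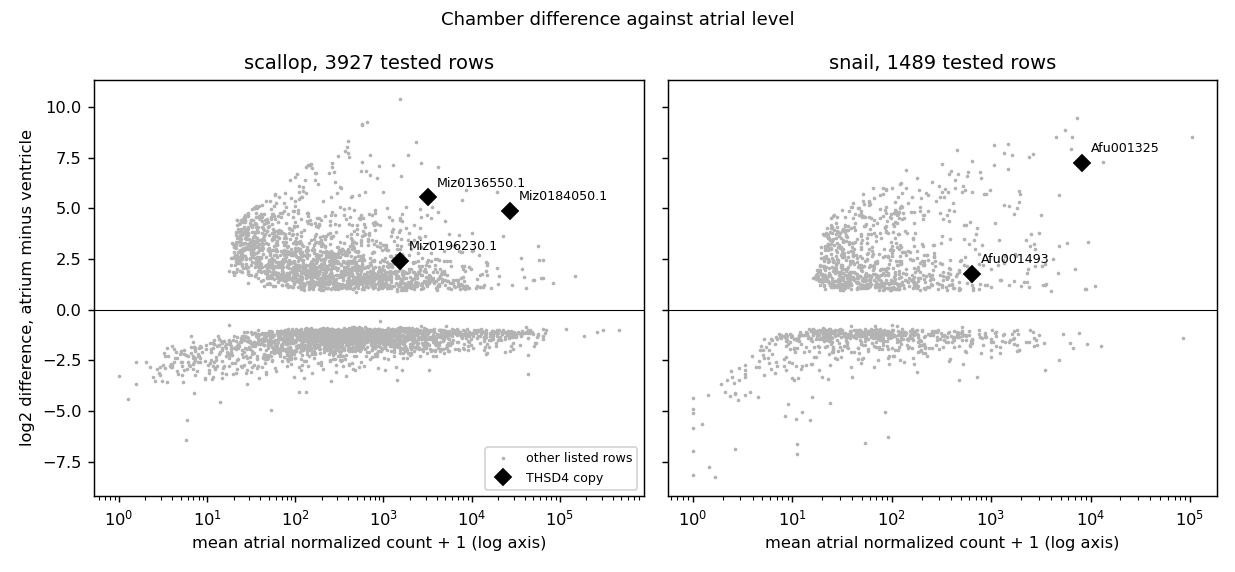
Log2 difference (atrium minus ventricle, log2 of normalized count + 1) against the mean atrial normalized count plus 1 (log axis) for the 3927 tested scallop and 1489 tested snail rows. Black diamonds are THSD4 copies and grey points the other rows. Miz0184050.1 has no row at or above its atrial level with as large a difference, and the gap around 0 reflects the fold limit used to list rows.

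Summed over copies, THSD4 took 0.271% to 0.458% of the normalized counts on listed rows in scallop atria and 0.00382% to 0.0177% in scallop ventricles. In the snail the shares were 0.889% to 1.48% and 0.0236% to 0.0391%. The leading scallop copy supplied a nearly constant 84.9% to 85.3% of the THSD4 sum in atria and 60.6% to 78.5% in ventricles. In the snail Afu001325 supplied 90.6% to 94.4% in atria but 7.69% to 53.9% in ventricles. The denominators are sums over listed rows only, which themselves differ between the chambers.

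Ratios between copies of the same library do not depend on the size factors. Miz0184050.1 exceeded Miz0136550.1 by log2 ratios of 3.24, 2.99 and 2.96 in the atria and 3.07, 3.81 and 4.36 in the ventricles. These ranges overlapped, so this ratio did not separate the chambers. Miz0136550.1 exceeded Miz0196230.1 in every atrium, by 0.67, 1.26 and 1.43, and lay below it in every ventricle, at −1.0, −1.51 and −3.63. Their order thus turned between the chambers. In the snail the log2 ratio of Afu001325 to Afu001493 was 4.06, 3.27 and 3.66 in the atria and −2.13, 0.23 and −3.58 in the ventricles. Afu001493 had more reads than Afu001325 in 2 of 3 ventricles and in no atrium. The standard deviation of each ratio was larger between ventricles (0.65 to 1.92) than between atria (0.15 to 0.40).

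**Figure D3:**
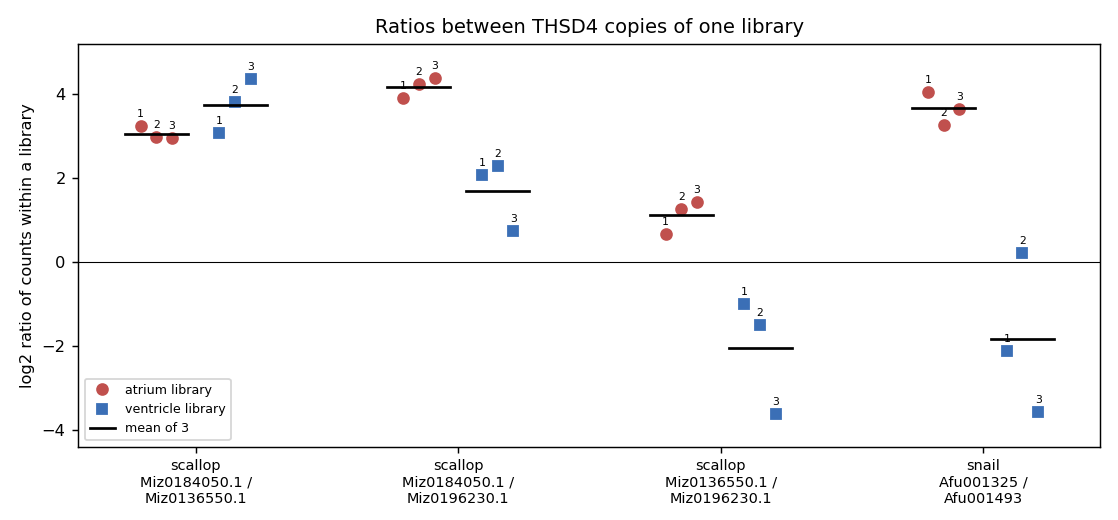
Log2 ratio of read counts between copies within each library. Circles are atria, squares ventricles, digits replicate labels and black lines means of 3. The atrial ratios lie close together, while the ventricles of Miz0136550.1 against Miz0196230.1 and of Afu001325 against Afu001493 reach down to −3.63 and −3.58, both in ventricle 3.

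The copies did not share an order of libraries in the ventricle. Atrium 1 was the highest atrium for all 3 scallop copies, which held for 32.6% of the 1786 scallop rows with higher atrial means. Ventricle 3 was the highest ventricle for Miz0184050.1 and Miz0196230.1 and for 51.7% of those rows, and its median ratio to the mean of ventricles 1 and 2 over them was 1.37. For Miz0136550.1 that ratio was 0.899, so this copy did not follow the raised ventricle 3. The pooled log2 SD within chambers was 0.21 for Miz0136550.1, and 96.5% of tested scallop rows had a larger one. It was 1.0 for Miz0196230.1 and 1.23 for Afu001325, which only 20.9% and 15.7% of tested rows of their species exceeded.

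The heart label was checked against muscle markers, and markers of other cells were counted beside it. Of 22 heart muscle symbols 5 were listed in scallop, in 8 rows. Their summed normalized counts were 665941 to 822740 in atria and 1166978 to 2252411 in ventricles. The most abundant row was ACTB Miz0185270.1 (466603 ± 77033 against 972388 ± 347859), followed by Tm2 (190551 ± 3498 against 481338 ± 125322). The annotation does not show whether the ACTB rows are muscle actins, so the sums are a weak check of the label. Of the 8 rows 7 were past the threshold toward the ventricle, beside 45.6% of all tested scallop rows. However, 4 of the 8 turned direction under the ribosomal rescaling. Of the 7 calls, 2 held in all fits without 1 library and 0 in all 3 other scalings. NKX2-5 and GATA4 were among the symbols not listed, which says nothing of their level. In the snail 6 were listed, in 10 rows, with sums of 20405 to 22926 and 56188 to 150301. These snail rows were divided, with 4 past the threshold toward the ventricle, 2 toward the atrium, 3 not passing and 1 untested. The shares of all tested snail rows were 37.0% toward the ventricle and 46.9% toward the atrium. Toward the ventricle were ACTB Afu006397 (12618 ± 1276 against 49614 ± 32037), Tm2 (3473 ± 348 against 28983 ± 15100) and TNNT2 (1682 ± 321 against 5384 ± 569). So was HAND2, with no read in any atrium. GATA6 (376.1 ± 27.6 against 162.8 ± 40.5) and unc-22 Afu013995 (33.6 ± 2.5 against 3.50 ± 3.27) passed toward the atrium. The more abundant unc-22 Afu009731 (505.5 ± 84.1 against 1030 ± 672) did not pass, and unc-22 Afu013993 was untested. Hemocyte markers were higher in atria, at 25947 to 35783 against 7478 to 12378 in scallop (4 of 14 symbols) and 262.4 to 523.8 against 69.9 to 129.8 in snail (3 of 14, with 2 Mco1 rows at 0 in ventricles). Snail RUNX1 had 10 atrial and 28 ventricular reads, below the limit for testing. In each species the 4 tested hemocyte rows passed toward the atrium, beside 42.0% of tested scallop and 46.9% of tested snail rows. Of these 4 calls, 3 in scallop and 2 in snail held in all fits without 1 library. In the other scalings 4 held in scallop and 1 in snail. Scallop RUNX1 lost its call without atrium 2 or ventricle 2. Snail Mco1 Afu020862 stood at 19.0, 2.27 and 274.5 in the atria. Nerve cell markers summed to 4517 to 4982 against 1651 to 2640 in scallop (5 of 12) and 509.6 to 770.0 against 392.3 to 565.4 in snail (3 of 12), but their members went both ways. In scallop 4 of 5 rows passed toward the atrium, beside 42.0% of all tested rows. Only 1 of these 4 calls held in all fits without 1 library. GRIN1 made up most of the scallop sum and CHAT stood at 207.3 ± 50.1 and 511.6 ± 486 without passing. In snail PCSK1 and ELAVL4 passed toward the atrium and both PCSK2 rows toward the ventricle, beside 46.9% and 37.0% of all tested rows. Of these 4 snail calls 2 held in all fits without 1 library. Of 6 ciliated or epithelial symbols, MUC5B and DNAH5 were listed in scallop, at 350.0 to 535.2 against 40.9 to 153.0, and none in snail. The part of these cells in the THSD4 differences was not tested.

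RNA of other genes named for proteins with thrombospondin repeats was mostly higher in the scallop atrium. Of 82 symbols on this list, which leaves out THSD4, 11 were found in 17 scallop rows. Of the 16 tested, 15 passed in the atrial direction and 0 in the ventricular one, beside 42.0% and 45.6% of all tested rows. The median log2 difference was 3.15 beside −1.01 for all tested rows. Of the 15 calls, 13 held in all fits without 1 library and 11 in all 3 other scalings. The count toward the ventricle was 1 by edgeR, by DESeq2 and in the limma fit without ventricle 3, in each case HMCN1 Miz0015430.1. It was 0 at an unadjusted limma p under 0.05. As the rows were listed for this contrast, the counts describe the table and are no evidence of a shared direction.

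Among scallop proteases of the ADAMTS family, which cut matrix proteins, ADAMTS9 was higher in the atrium at 3107 ± 1403 against 124.4 ± 65.4, ADAMTS14 at 801.3 ± 338 against 37.4 ± 3.03, and ADAMTS16 at 808.2 ± 152 against 79.95 ± 115. ADAMTS12 had 73 reads over the atria and 0 in the ventricles, but its mean lay below the limit for testing. ADAMTSL1, an ADAMTS-like protein without protease activity in mammals and thus of the same kind as THSD4, stood at 3079 ± 364 and 705.5 ± 475, a log2 difference of 2.37 ± 0.49. The largest difference of the list was in SSPO (Miz0243250.1), named for a giant secreted protein of the vertebrate brain, at 4200 ± 2504 and 36.2 ± 27.2 (log2 difference 7.03 ± 0.68). A second, low SSPO row (Miz0098260.1) was higher in the atrium as well, at 46.5 ± 21.7 against 3.01 ± 5.21.

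Hemicentins are very long matrix proteins that join basement membranes in the worm Caenorhabditis elegans. HMCN1 had 6 scallop rows, 5 of them past the threshold toward the atrium, beside 42.0% of all tested scallop rows. The 5 ranged from Miz0119040.1 at 1761 ± 174 against 543.6 ± 275 to Miz0117240.1 at 31.8 ± 40.7 against 1.74 ± 1.56. Miz0117240.1 stood at 78.8, 7.64 and 8.92 in the atria, so atrium 1 carried its mean, and its call was lost without atrium 1, ventricle 1 or ventricle 3 and under quantile normalization. Miz0015430.1 did not pass, at 1659 ± 526 and 3752 ± 2020, with the sign reversed after rescaling to ribosomal protein genes. Among receptors and guidance proteins, UNC5C, a netrin receptor, differed by a log2 difference of 1.95 ± 0.31, and SEMA5A, a semaphorin, by 1.77 ± 0.30. THSD7A differed by 1.39 ± 0.37 and THSD1 by 1.46 ± 0.48, and THSD1 lost the call without any 1 of the atria.

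In the snail the same list was divided. Of 12 rows with 9 symbols, 8 were tested, 5 passing as atrial and 2 as ventricular, beside 46.9% and 37.0% of all tested rows. The median was 1.79 beside 1.22 for all tested rows, and the latter became −0.97 where only rows with a mean of at least 50 were kept. THSD7A was higher in the atrium at 57.2 ± 12.3 against 3.98 ± 2.88, ADAMTS12 at 113.2 ± 36.7 against 24.7 ± 10.9 and HMCN1 Afu006659 at 62.8 ± 7.37 against 9.88 ± 5.01. HMCN1 Afu006202 and hmcn2 also passed, but neither stayed called in 4 of the 6 leave-1-out fits, and the direction of hmcn2 turned under quantile normalization. SPON2, a spondin of the matrix, was higher in the ventricle at 476.3 ± 247 against 1532 ± 213. So was UNC5C at 29.2 ± 6.41 against 67.6 ± 22.3, a call lost without atrium 2 or ventricle 1. ADAMTSL1 stood at 33.6 ± 19.4 and 12.6 ± 8.61 and did not pass. The 4 rows below the limit for testing were THSD1, SPON1 and 2 of HMCN1 (Afu001258, Afu006193), with 73, 61, 52 and 19 atrial reads against 1, 8, 0 and 0 in ventricles. The atrial count was 3 without atrium 1, atrium 3 or ventricle 1, and the ventricular count 1 without atrium 2 or ventricle 1.

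Few genes of the fibrillin microfibril and TGF-beta list were listed, 2 of 54 symbols in scallop and 3 in snail. Scallop FBN1, a fibrillin that THSD4 binds in mammals, stood at 10712, 6404 and 6938 in atria and 1028, 1887 and 3896 in ventricles. Every atrium exceeded every ventricle, and the log2 difference of 1.99 ± 0.46 passed the threshold. FBLN2, a fibulin that joins elastic fibres and basement membranes, went the other way at 3737 ± 1265 against 8183 ± 4006 (log2 difference −1.08 ± 0.39). That call was lost under each of the 3 other scalings and without atrium 1, atrium 3 or ventricle 3, and the direction turned under the ribosomal rescaling. In the snail FBN1 stood at 20.4, 0.758 and 99.05 in atria and 4.32, 1.71 and 0 in ventricles, so the chambers overlapped and it did not pass. It passed toward the atrium without atrium 2 and by DESeq2. Snail FBLN2 stood at 162.0, 6.82 and 260.6 against 8.64, 1.71 and 4.03. Its chambers overlapped through atrium 2, and its call toward the atrium was lost in 5 of 6 fits without 1 library. MSTN, a TGF-beta family ligand known in mammals as a brake on muscle growth, stood at 8.01 ± 7.49 and 24.1 ± 11.7 and did not pass, but passed toward the ventricle without atrium 3 and had an unadjusted limma p under 0.05.

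**Figure D4:**
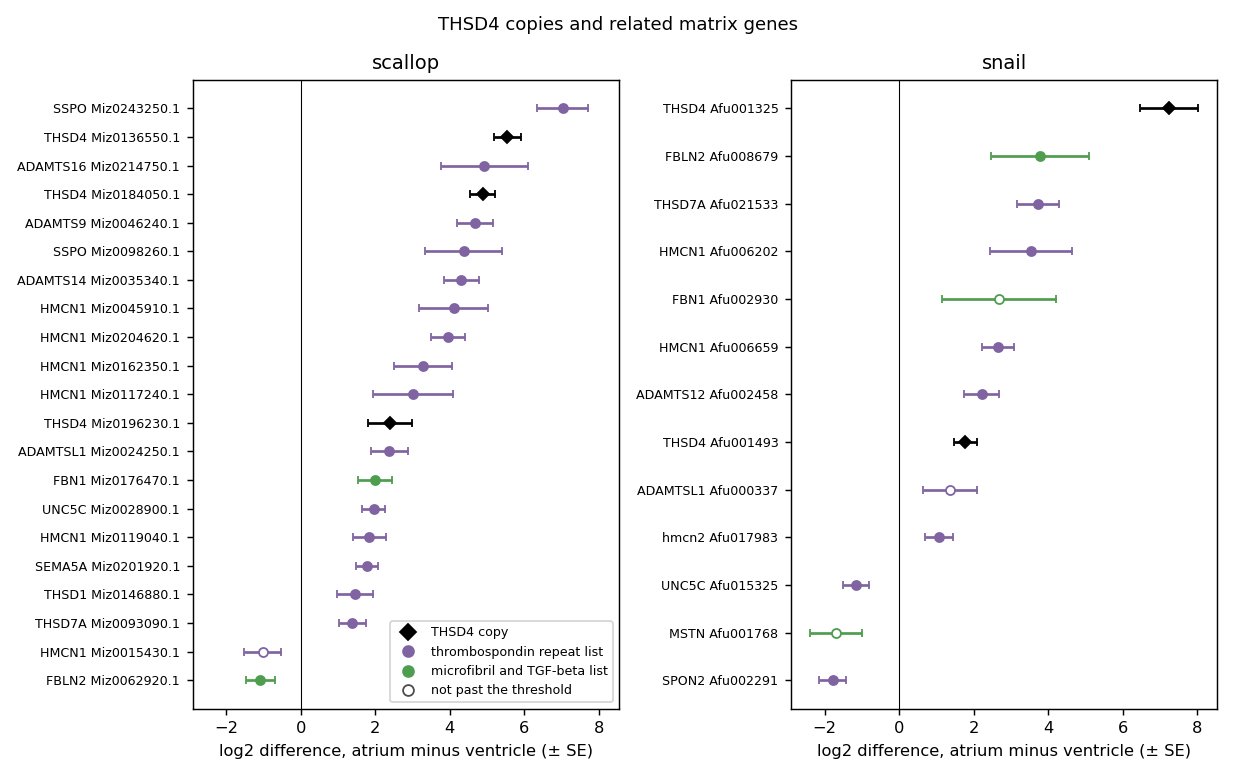
Log2 difference (atrium minus ventricle) with its limma SE for THSD4 copies (black diamonds), other thrombospondin repeat genes (purple) and microfibril and TGF-beta genes (green) in scallop and snail. Open circles did not pass the threshold. Afu001325 at 7.23 lies highest among the snail genes shown, and SSPO Miz0243250.1 at 7.03 among the scallop genes.

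The rows with the profile closest to each leading copy were found by the root mean square difference of centred log2 values over the 6 libraries of a species. For Miz0184050.1, among 2408 scallop rows with a symbol, they were CHRD (0.35), FOXC1 (0.37), gly-5 (0.42), CASP14 (0.43) and MYOD1 (0.43). CHRD is named for chordin, a secreted BMP antagonist, FOXC1 for a forkhead factor and gly-5 for a worm glycosyltransferase. CASP14 stood at 592.4 ± 85.2 in atria and 25.4 ± 7.92 in ventricles. The other 4 had mean ventricular counts of at most 0.626, so their profile in the ventricle was set mainly by the pseudocount of 1. The THSD4 copy Miz0136550.1 lay at 0.51 and would have ranked 11, while Miz0196230.1 lay at 1.34 and would have ranked 202.

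For Afu001325, among 847 snail rows, the closest was FRAS1 (0.98), a basement membrane protein of vertebrates, at 2408 ± 939 in atria and 21.4 ± 23.7 in ventricles. The next 4 were rows named CPVL, a serine carboxypeptidase, at 1.03 to 1.19. Afu021767, the most abundant of these, stood at 4480 ± 1257 and 20.1 ± 22.7. Afu021782 stood at 0 in every ventricle and Afu021766 at a ventricular mean of 0.36, so the pseudocount mainly set their ventricular profile. The distances of the 5 closest rows were larger than in scallop, and in each species chamber dominated the profile. The other snail copy, Afu001493, lay at 2.94 and would have ranked 212.

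**Figure D5:**
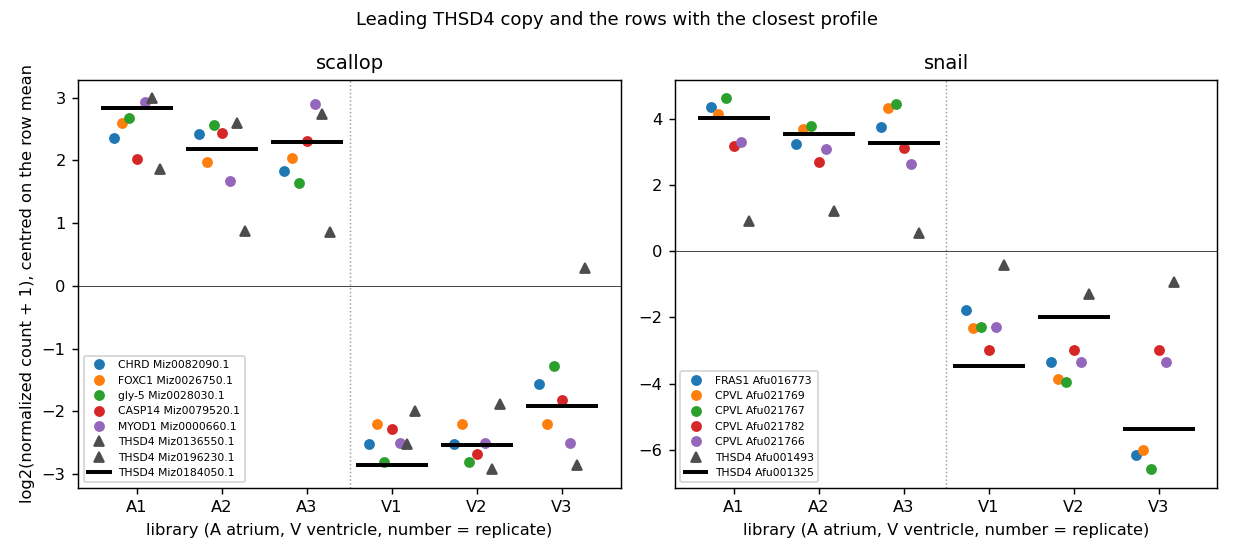
Log2(normalized count + 1), centred on the mean of each row, in the atria (A1 to A3) and ventricles (V1 to V3) of scallop and snail. Black bars are the leading THSD4 copy, coloured circles the 5 rows with the closest profile and grey triangles the other THSD4 copies. Miz0136550.1 follows the leading scallop copy at a distance of 0.51, and Afu001493 lies far from Afu001325 at 2.94.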

How the data were processed

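Poly-A selected RNA from scallop and snail atria and ventricles was sequenced. DESeq2 1.20.0, StringTie 1.3.3b, featureCounts 1.5.0 and HISAT2 2.0.5 are named, with no role, per the submitters' processing notes; builds, annotation and strand setting are not given in the sources used here. The authors deposited a signal per library, read counts divided by a size factor: 100% of values were whole multiples of the smallest (tolerance 0.01 read). The authors also deposited log2 fold changes (ventricle over atrium), a test score and p-values, quoted only where named.

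Log2(value + 1) of rows with a mean of at least 10 (all 5 copies, 3927 scallop and 1489 snail rows) went into limma's trended fit (limma 3.58.1 under R 4.3.3) with Benjamini-Hochberg adjustment. Calls needed an adjusted p under 0.05 and a 2-fold change. The limma step was tested on simulated data in which most rows did not differ between chambers, unlike the listed rows. That test does not show how reliable the calls made here are. Alternatives were edgeR 4.0.16 and DESeq2 1.42.0 on recovered reads, 3 scalings, pseudocounts, filters, left-out libraries and a replicate block. Reads and size factors were recovered by taking the smallest nonzero value of a library as 1 read. The design named edgeR for raw counts and limma for scaled ones; the second applied. Members and lists were chosen with earlier results of these data known. Named genes were the copies, every listed member of 2 lists (thrombospondin repeat; microfibril and TGF-beta) and the 5 rows closest to each leading copy.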

Additional observations from a re-analysis of the deposited data

How the results depend on the processing

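All 5 copies stayed past the threshold toward the atrium under every alternative run. They had been listed for this contrast, so little is read from that count. Over all tested rows, atrial calls under the alternatives ranged from 866 of 3927 to 1855 of 4195 in scallop. In snail they ranged from 312 of 1489 to 987 of 1886. Of 78 recomputed log2 differences of copies, 72 moved by less than the pooled replicate SD, 6 by more and 0 turned. Scaling moved the median of all tested rows. In scallop it went from −1.01 to −0.54 (further TMM), −0.36 (quantile) and 0.22 (ribosomal rescaling). In snail it went from 1.22 to 1.40 and 0.23 (TMM, quantile). Too few ribosomal genes were listed in snail for the rescaling, which was not run there. Relative to that median Miz0184050.1 lay 5.89 higher, and 5.89, 5.98 and 5.89 under the 3 scalings. Quantile normalization moved Miz0136550.1 from 6.56 to 5.88, Miz0196230.1 from 3.41 to 2.88 and Afu001325 from 6.01 to 7.07. Afu001493 lay 0.55 higher (0.56 and 1.53 under TMM and quantile). The filter moved Afu001493 too, to 0.25 with none and to 2.75 with a mean of at least 50, where the snail median was −0.97. Under the same filters Afu001325 lay 5.71 and 8.20 higher. Calls over all scallop rows (1648 atrial, 1792 ventricular, 47.9% atrial) were 975 and 1131 under quantile normalization, 1728 and 627 (73.4% atrial) after TMM and 1738 and 59 (96.7%) after the rescaling. Without 1 library they ranged from 866 to 1565 and from 909 to 1918; atria 1 and 2 gave 968 and 866 atrial, and 909 and 942 ventricular, and ventricles 1 and 2 gave 1186 and 1161 ventricular calls. Snail calls (698 and 551, 55.9% atrial) were 312 and 593 (34.5%) under quantile normalization and 323 atrial with a mean of at least 50. Same-numbered libraries did not deviate together (correlations −0.16 to −0.12 in scallop, −0.09 to 0.06 in snail). With 3 libraries per chamber and selected rows, these correlations cannot show whether libraries shared an animal. The labels state no pairing, so the libraries were treated as unpaired. A replicate block gave 1495 and 1527 scallop calls, 640 and 530 snail calls, 1 ventricular call in the scallop thrombospondin list and 3 atrial calls in the snail one. The scallop thrombospondin list also had 1 ventricular call by edgeR and by DESeq2, and 0 to 1 without 1 library. Its 15 atrial calls became 11 under quantile normalization, 12 with a mean of at least 50 and 16 with no filter. The snail list (5 and 2) had 3 atrial calls under quantile normalization, 9 with no filter and 1 with a mean of at least 50, and 1 ventricular call after TMM or with a mean of at least 50; without 1 library it had 3 to 6 and 1 to 2. The microfibril list had 0 ventricular scallop calls under each scaling (0 to 1 without 1 library). In snail it had 0 atrial and 1 ventricular call under quantile normalization, 2 atrial by DESeq2, and 0 to 2 and 0 to 1 without 1 library. The causes were not tested. Ventricular levels of Afu001325 rest on 11 to 96 reads.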
